A study of Mus musculus with 2 samples.

Results

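The genes of Polycomb repressive complex 2 (PRC2) subunits were described here by the NANOG binding sites around them in mouse embryonic stem cells. The 8 genes were taken by name from a list, 4 for the core of the complex (Ezh1, Ezh2, Eed and Suz12) and 4 for accessory subunits (Jarid2, Mtf2, Aebp2 and Phf19), out of 21485 protein-coding genes tested. ChIP-seq, in which DNA bound by a protein is pulled down with an antibody and sequenced, was done on NANOG. The cells were the E14TG2a.4 line of mouse embryonic stem cells, which comes from strain 129/Ola and is labelled male and embryonic with an age of 3.5 days. The labels give 1 group of 2 biological replicates, with an antibody to NANOG, no treatment and no second condition, so no conditions were compared and no test between groups was possible. Both replicates come from 1 line and 1 donor, and p-values are not given. A peak's summit is its highest point, and a summit was assigned to a gene when it lay in the gene body or within 50 kb of the transcription start site (TSS). Binding was measured, and neither the expression of these genes nor any effect of NANOG on them was measured, so the identity of the line could not be checked by marker expression.

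PRC2 places methyl groups on lysine 27 of histone H3, a mark of repressed developmental genes in embryonic stem cells. EZH2 and its paralog EZH1 carry the methyltransferase domain, EED binds the methylated product and stimulates the enzyme, and SUZ12 holds the core together and carries the accessory subunits. JARID2 and AEBP2 occur together in one form of the complex, and MTF2 and PHF19, 2 of the Polycomb-like proteins, occur in the other. NANOG, a DNA-binding protein with a homeodomain, helps to keep these cells pluripotent.

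All 8 genes had at least 1 summit of the authors' optimal set, which holds 15891 peaks that passed their reproducibility procedure (irreproducible discovery rate, IDR). The background is high, since 48.4% of all protein-coding genes tested had such a summit in the same kind of window. The windows of the 8 genes held 28 summits, 7 at core genes and 21 at accessory genes. Over all genes tested, a window held a mean of 0.933 summits and a median of 0. At least 2 summits were found at 6 of the 8 genes (22.8% of all genes), and at least 4 at 3 genes (4.99% of all genes). These 3 were Jarid2, Aebp2 and Mtf2, and the same 3 had a summit among the 1000 highest optimal peaks, which 5.18% of all genes had. No core gene reached either level, and neither did Phf19. The stricter conservative set was reached at 7 genes, all but Suz12, against 32.9% of all genes.

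The peak signal, a value of the authors' peak caller on a scale that is not stated, ran from 15.3 to 336 over the 28 summits, with a median of 63.8. Over the whole optimal set the median was 40.2, and 20 of the 28 summits were above it. Per length, core genes held 1.69 and accessory genes 3.84 summits per 100 kb of window, each over the summed windows of the group. Over all genes tested the mean of the densities per gene was 0.760 summits per 100 kb. The median signal was 37.2 for the 7 summits at core genes and 74.0 for the 21 at accessory genes. The highest signal per gene was 336 at Jarid2, 186 at Mtf2, 181 at Aebp2, 89.4 at Eed, 79.3 at Ezh1, 63.7 at Phf19, 37.2 at Ezh2 and 32.3 at Suz12. Among all genes with a summit, the median of the highest signal was 52.0. The accessory gene Phf19 lay below the core genes Eed and Ezh1, so the signals of the 4 core and 4 accessory genes overlapped. Genes are not replicates of a condition, and the difference between core and accessory genes was not tested.

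**Figure D1:**
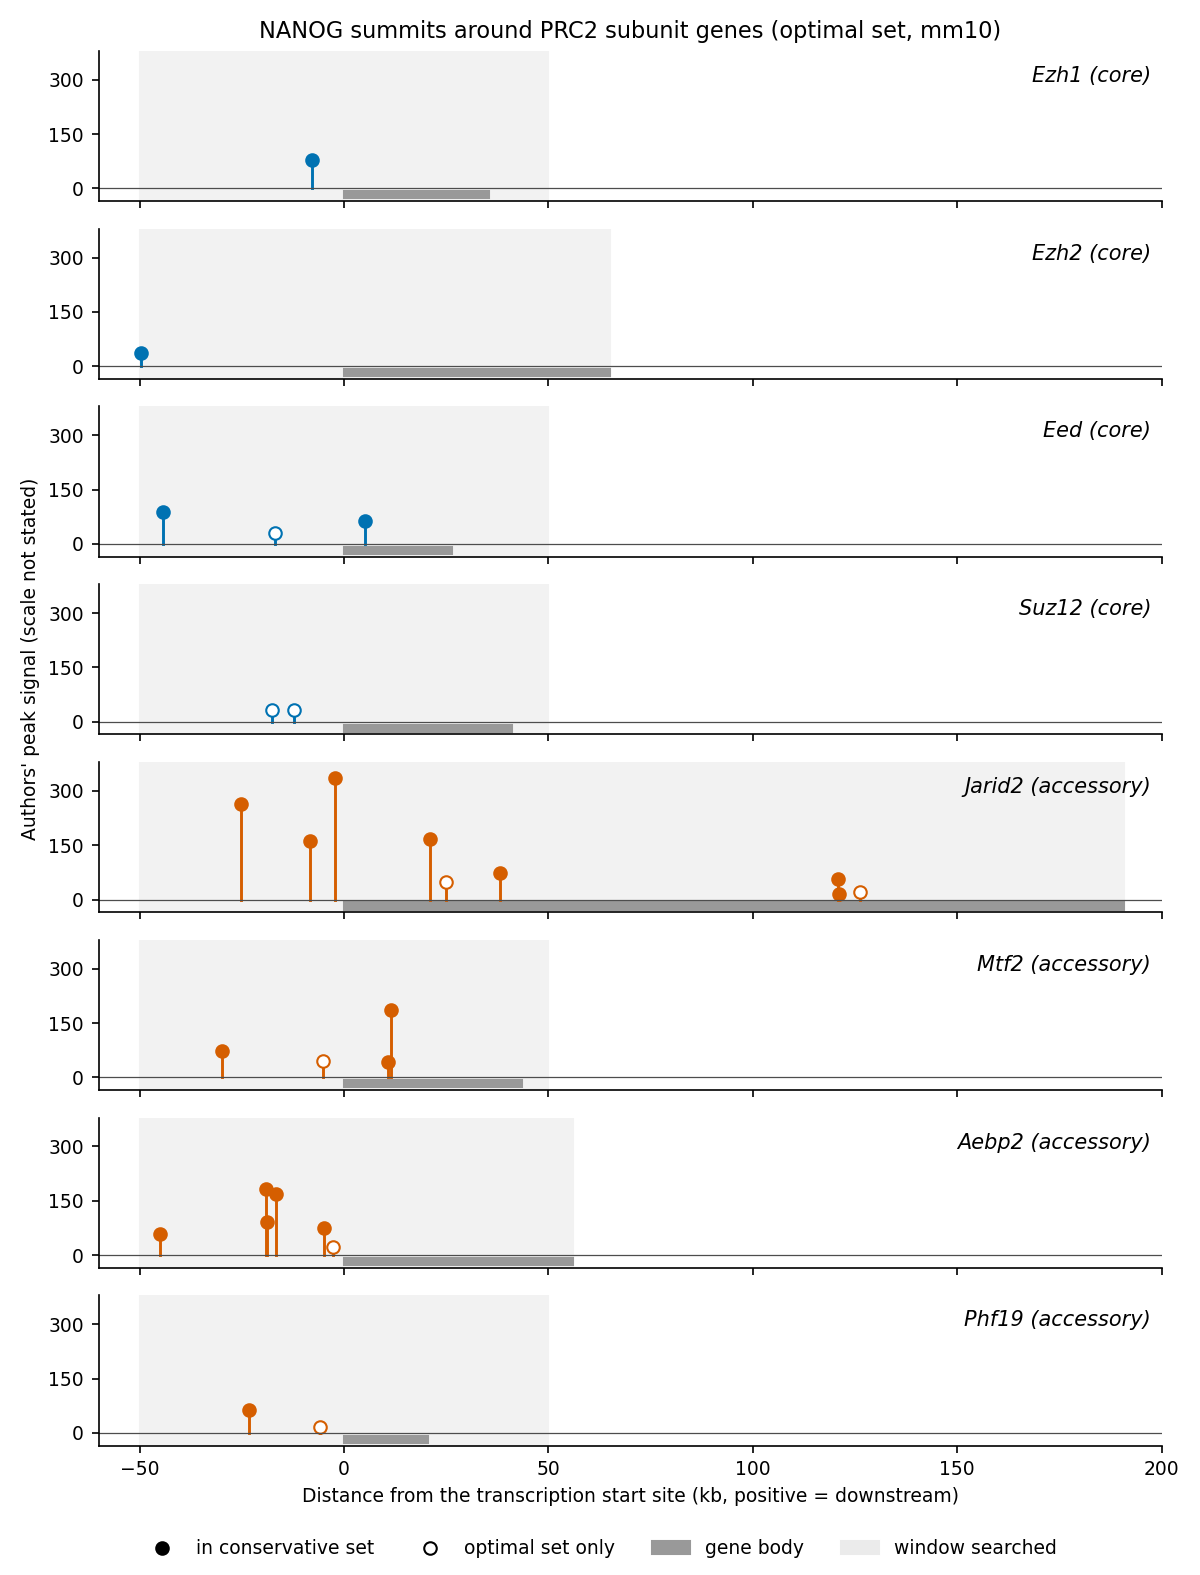
Position and signal of the 28 optimal NANOG summits at the 8 genes. The x axis is the distance from the TSS in kb and the y axis the authors' peak signal, filled points were in the conservative set, and grey bars are gene bodies. The 3 highest points belong to Jarid2 and Mtf2, of which Jarid2 reaches 336 at 2.12 kb upstream.

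None of the 28 summits lay within 1 kb of the 5' end of its gene and 8 lay within 10 kb. Of all optimal peaks on assembled chromosomes, 3.20% lay within 1 kb and 20.5% within 10 kb of their nearest protein-coding TSS. The share within 1 kb is small there too, so the lack of such summits is not read as a trait of the 8 genes. Those shares cover peaks at any distance from genes and use the nearest TSS, so they are not a matched background. The closest summit lay 2.12 kb from the 5' end, and the median distance was 18.3 kb. Other listed starts can be nearer, as at Mtf2. Of the 28, 19 lay upstream of the TSS and 9 inside the gene body, 8 of these 9 at accessory genes. Jarid2, the longest of the 8 genes at 190.9 kb, held 6 of the 9. The gene itself had the nearest TSS for 26 summits, and for 19 summits no other protein-coding gene had the summit in its own window. All 21 summits at accessory genes were nearest to their own gene, against 5 of 7 at core genes. The nearest TSS was that of Gm40369 for the Ezh2 summit and that of Utp6 for 1 Suz12 summit. Such counts depend on how close the neighbouring genes lie. The shares upstream, in gene bodies and nearest to the own TSS were not computed over all genes, and no difference between the groups was tested.

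The sequences at the centres of 5 peaks of the authors' mm9 list, which was called separately from the mm10 sets, are shown as examples of the sites themselves: the highest peak of Jarid2, Mtf2, Aebp2 and Ezh1, and the Eed peak 44.1 kb upstream, chosen after its sequence was seen. Each is 300 bases of the plus strand of mm9, from 5' to 3', centred on the midpoint of the peak, which need not be the bound base. They lie at chr13:44823885-44824184 (Jarid2), chr5:108505823-108506122 (Mtf2), chr6:140551859-140552158 (Aebp2), chr11:101095491-101095790 (Ezh1) and chr7:97173470-97173769 (Eed). Capitals mark matches to any of the motifs described after the sequences.
Jarid2: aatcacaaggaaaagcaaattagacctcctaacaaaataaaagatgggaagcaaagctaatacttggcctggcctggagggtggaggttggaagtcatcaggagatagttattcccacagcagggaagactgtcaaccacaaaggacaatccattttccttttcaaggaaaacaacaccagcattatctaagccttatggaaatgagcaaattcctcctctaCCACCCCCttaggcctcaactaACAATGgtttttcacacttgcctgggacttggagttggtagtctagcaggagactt
Mtf2: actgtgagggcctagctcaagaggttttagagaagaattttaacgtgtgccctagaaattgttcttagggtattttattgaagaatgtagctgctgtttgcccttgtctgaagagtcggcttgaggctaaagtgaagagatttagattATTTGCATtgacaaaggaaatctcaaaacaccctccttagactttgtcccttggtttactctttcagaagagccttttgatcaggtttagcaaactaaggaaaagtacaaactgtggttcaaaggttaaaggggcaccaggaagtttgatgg
Aebp2: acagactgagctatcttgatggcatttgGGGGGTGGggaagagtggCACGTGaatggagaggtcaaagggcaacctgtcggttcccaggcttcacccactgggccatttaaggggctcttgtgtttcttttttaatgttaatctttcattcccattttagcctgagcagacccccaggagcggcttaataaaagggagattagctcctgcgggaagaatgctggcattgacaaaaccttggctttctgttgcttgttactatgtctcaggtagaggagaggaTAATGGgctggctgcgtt
Ezh1: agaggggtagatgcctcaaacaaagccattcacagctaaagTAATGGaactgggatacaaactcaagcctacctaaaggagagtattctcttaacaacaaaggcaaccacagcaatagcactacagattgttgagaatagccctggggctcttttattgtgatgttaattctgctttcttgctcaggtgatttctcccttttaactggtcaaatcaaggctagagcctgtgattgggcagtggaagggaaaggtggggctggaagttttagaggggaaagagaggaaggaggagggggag
Eed: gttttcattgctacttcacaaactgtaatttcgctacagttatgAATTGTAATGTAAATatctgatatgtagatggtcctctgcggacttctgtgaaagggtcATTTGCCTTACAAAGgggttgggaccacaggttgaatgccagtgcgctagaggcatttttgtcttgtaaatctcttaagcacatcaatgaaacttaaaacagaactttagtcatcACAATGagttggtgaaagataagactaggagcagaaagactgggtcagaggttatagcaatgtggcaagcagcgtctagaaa

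Motifs were searched on both strands as exact letters, apart from the joint SOX2 and OCT4 site, for which up to 2 mismatches were allowed, and matches of different motifs may overlap. The SOX letters CATTGT were present in 31.5% of all mm9 peaks in windows of the same length, the OCT octamer ATGCAAAT in 5.60%, the homeodomain letters TAATGG in 16.1%, the KLF letters GGGNGTGG in 12.1%, the E-box CACGTG in 2.47% and the ESRRB letters TCAAGGTCA in 3.90%. The joint site was present in 3.54%. Of the 27 peaks at the 8 genes, 6 held the SOX letters, 3 the octamer, 6 the homeodomain letters, 6 the KLF letters, 2 the E-box, 0 the ESRRB letters and 2 the joint site. At least 1 match was found in 16 of the 27, and in 57.3% of all mm9 peaks.

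In the Mtf2 sequence the octamer lies at bases 149 to 156 of the 300. This mm9 peak is 1947 bp wide and its midpoint is not a summit. The highest Jarid2 peak held a SOX and a KLF match, and the Aebp2 sequence held KLF, E-box and homeodomain matches. The only match in the Ezh1 sequence was the homeodomain letters. The Eed sequence held 2 matches to the joint site, each with 2 mismatches, and 1 SOX match, and the other joint match among the 27 was in a Suz12 peak 12.2 kb upstream. No match to any motif searched was found at the peaks of Ezh2 and Phf19. The median GC content of the 27 windows was 44.7%, against 45.7% over all mm9 peaks. A match is a description of the letters and not a measured contact.

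Jarid2 encodes a Jumonji-family protein without demethylase activity that helps recruit PRC2. It lies on the plus strand at mm10 chr13:44730774-44921643 and had 9 summits, more than any other of the 8 genes. Its highest peak, at chr13:44728477-44728847, had a signal of 336 and ranked 128 in the optimal set, 2.12 kb upstream of the TSS. In the relaxed lists, which hold 300000 ranked regions per replicate, this summit had signal 237 and rank 122 in replicate 1, and signal 102 and rank 127 in replicate 2. A second peak 25.1 kb upstream (chr13:44705436-44705804) had signal 263, with rank 264 in replicate 1 and 326 in replicate 2. The ranks of both peaks were close in the 2 replicates.

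The peak 8.34 kb upstream had signal 161, with rank 1448 in replicate 1 and 448 in replicate 2. Inside Jarid2, the strongest peak lay 21.1 kb downstream of the TSS with signal 168, rank 1271 in replicate 1 and 419 in replicate 2. Both of these stood higher in replicate 2. The other intragenic summits had signals of 47.9 at 24.9 kb, 74.4 at 38.2 kb, 56.1 at 120.8 kb, 15.3 at 121.0 kb and 21.5 at 126.3 kb. The peak at 24.9 kb was uneven between replicates, with rank 5351 in replicate 1 and 187105 in replicate 2. Jarid2 also has the longest window of the 8 genes, 240.9 kb against at most 115.0 kb for the others. Per length it held 3.74 summits per 100 kb, a density that 2.63% of all genes reached. A further upstream peak of signal 79.1 lay 1.16 kb outside the window.

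Aebp2, which encodes a zinc-finger subunit, lies on the plus strand at mm10 chr6:140622454-140678472 and had 6 summits, all upstream of the TSS. Of these, 3 lay close together, with signals of 181 at 19.1 kb, 90.6 at 18.9 kb and 168 at 16.5 kb upstream. The highest (chr6:140603200-140603485) ranked 830 in replicate 1 and 671 in replicate 2, and the one at 16.5 kb ranked 810 and 1141. The summits at 4.82 kb and 45.1 kb had signals of 75.1 and 57.7, and the latter lay inside the neighbouring gene Plekha5. The summit closest to the TSS, at 2.60 kb, had a signal of 22.6 and no summit of replicate 2 within 100 bp. With 5.66 summits per 100 kb, Aebp2 had the highest density of the 8 genes, which 0.419% of all genes reached. That count includes the peaks at 19.1 kb and 18.9 kb, which overlap each other, and the weak summit at 2.60 kb.

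Mtf2, which encodes a Polycomb-like protein with a Tudor domain, lies on the plus strand at mm10 chr5:108065660-108109219 and had 4 summits. Its highest peak (chr5:108076988-108077360, signal 186) was intragenic, 11.5 kb from the 5' end of the gene. RefSeq lists a second start of Mtf2, and this summit lay 1014 bp upstream of it. It ranked 759 in replicate 1 and 547 in replicate 2. A weaker summit beside it (signal 42.7) lay 1745 bp upstream of the same start. The summits 29.9 kb and 5.07 kb upstream of the 5' end had signals of 74.0 and 45.4. The first of these ranked 3556 and 4197 in the replicates, but the second ranked 5680 in replicate 1 and 289921 in replicate 2, near the end of that list. Mtf2 held 4.00 summits per 100 kb, which 2.49% of all genes reached. An upstream peak of signal 117 lay 1.28 kb outside the window.

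Phf19, another Polycomb-like gene (minus strand, mm10 chr2:34893752-34914353), had 2 summits. The higher (chr2:34937410-34937773, signal 63.7) lay 23.2 kb upstream and ranked 7027 in replicate 1 and 1817 in replicate 2. The other, 5.94 kb upstream, had signal 16.7 and ranked 103399 and 100170, far down both lists. That summit also lay in the windows of 3 other protein-coding genes. In number of summits and highest signal, Phf19 lay within the range of the core genes.

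**Figure D2:**
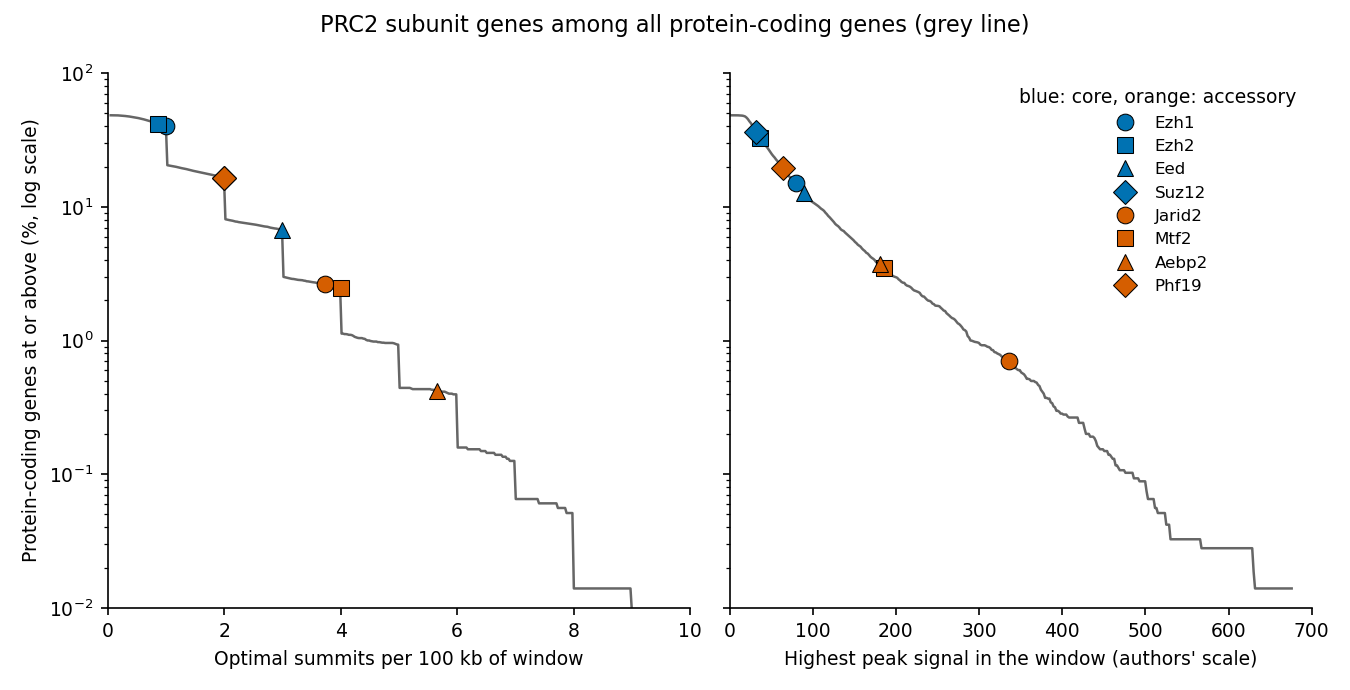
The 8 genes among all protein-coding genes (grey line, share of genes at or above each value, log scale). The left panel gives optimal summits per 100 kb of window and the right panel the highest peak signal in the window. Jarid2, Mtf2 and Aebp2 sit at the low end of both shares, at 0.707%, 3.49% and 3.70% for the signal.

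Among the core genes, Eed (minus strand, mm10 chr7:89954654-89980976) had the most summits, with 3. The highest, at chr7:90025069-90025159, lay 44.2 kb upstream with signal 89.4, and no other protein-coding gene had it in its window. It ranked 2913 in replicate 1 and 1862 in replicate 2. An intragenic summit, 5.23 kb past the TSS, had signal 64.0 and ranked 5386 and 2691, so both stood higher in replicate 2. The third, 16.8 kb upstream with signal 30.5, ranked 9168 in replicate 1 and had no replicate 2 summit within 100 bp.

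Ezh1 (minus strand, mm10 chr11:101191115-101226463) had 1 summit, 7.84 kb upstream of the TSS (chr11:101234125-101234488). Its signal was 79.3, and it ranked 3868 in replicate 1 and 2080 in replicate 2. The region is gene-dense, and 5 other protein-coding genes had this summit in their windows. Ezh2 (minus strand, mm10 chr6:47530274-47595270), the main methyltransferase gene of embryonic stem cells, also had 1 summit. It lay 49.7 kb upstream, 0.267 kb inside the edge of the window, and the TSS of Gm40369, 7.90 kb away, was nearer. Its signal was 37.2, with rank 8700 in replicate 1 and 23883 in replicate 2. With a window of 10 kb and the gene body, Ezh2 had no summit.

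Suz12 (plus strand, mm10 chr11:79993106-80034123) had the lowest highest signal of the 8 genes. Its 2 summits lay 17.6 kb and 12.3 kb upstream with signals of 32.0 and 32.3, and neither was in the conservative set. In replicate 1 they ranked 8120 and 10298. In replicate 2 the first had no summit within 100 bp and the second ranked 89470. Both also lay in the window of Utp6, whose TSS was nearer to the first. Among the 15891 highest regions of replicate 2 alone Suz12 had 0 summits, and among those of replicate 1 alone it had 2.

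The 7 summits that ranked among the 1000 highest optimal peaks, 4 at Jarid2, 2 at Aebp2 and 1 at Mtf2, were each among the 15891 highest regions of both replicates. Of the 28 summits, 20 overlapped a conservative peak (56.7% of all optimal peaks did). A summit within 100 bp in the relaxed lists of both replicates was found for 24 (73.1% of all optimal peaks). Since these lists run far into background, another count used only the 15891 highest regions of each replicate, and 18 summits were found in both (46.2% of all optimal peaks). By group, these were 3 of 7 at core genes and 15 of 21 at accessory genes. At least 1 such summit was present at 6 genes, all but Ezh2 and Suz12, against 29.7% of all genes. The optimal set was derived from these same lists, so such shares are in part built in. All 28 summits had a replicate 1 partner and 24 had one in replicate 2, and over all optimal peaks the shares were 96.9% and 75.0%. For the 24 with both, the median gap between replicate summits was 30.5 bp, against 29.0 bp over all supported optimal peaks.

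**Figure D3:**
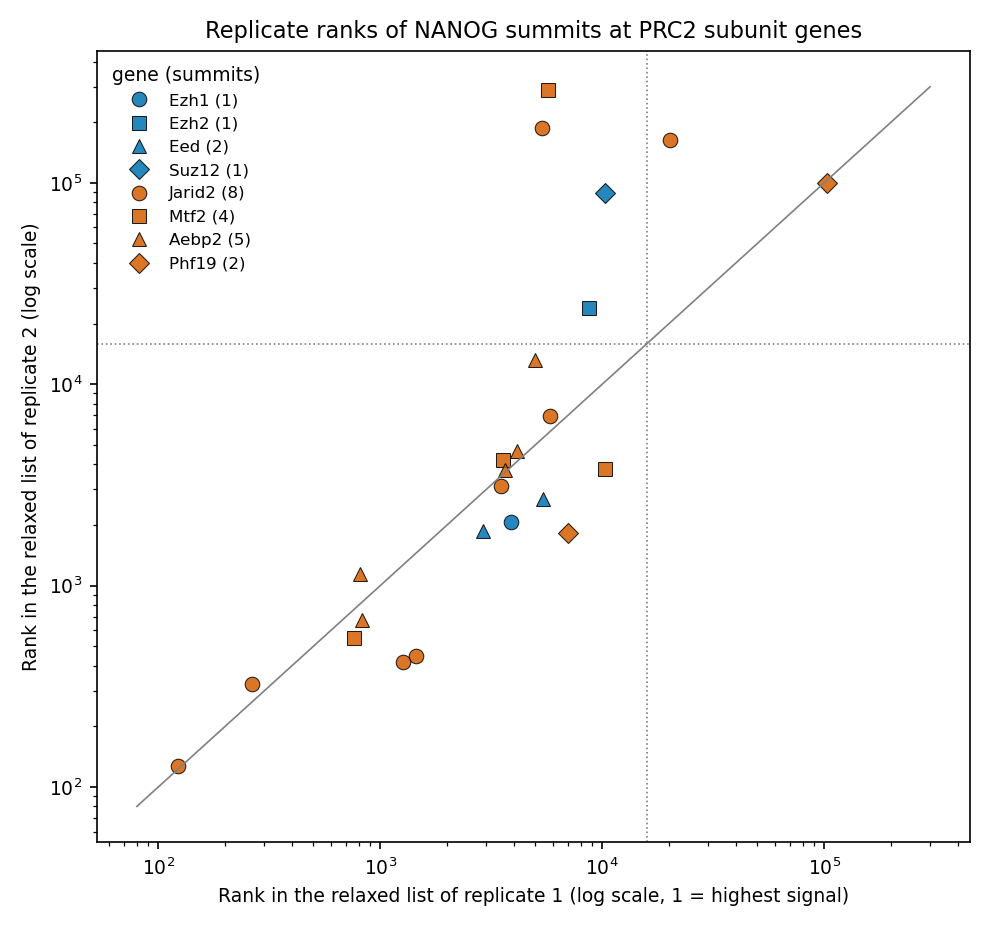
Rank of each of the 24 supported summits in the relaxed list of replicate 1 (x axis) and replicate 2 (y axis), both on log scales, with core genes in blue and accessory genes in orange. The grey line marks equal ranks and the dotted lines rank 15891. The strongest Jarid2 summit lies at 122 and 127, and the point farthest above the line is the Mtf2 summit at 5680 and 289921.

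The order of the genes by their highest mm10 signal was the same in both replicates for the upper 3 and not below them. In the relaxed list of replicate 1 the highest signals were 237 for Jarid2, 132 for Mtf2, 128 for Aebp2, 64.8 for Eed, 54.1 for Ezh1, 34.6 for Phf19, 30.8 for Suz12 and 29.1 for Ezh2. In replicate 2, whose scale differs, they were 102, 54.6, 49.5, 27.3, 25.7, 27.8, 7.58 and 9.77 in the same order of genes. Phf19 thus stood above Eed and Ezh1 in replicate 2 and below them in replicate 1, and Suz12 and Ezh2 changed places. Each value is the highest of any region in the window. The replicate 2 values of Ezh2 and Suz12 came from regions other than the partners of their optimal summits. Those partners had signals of 8.29 at rank 23883 for Ezh2 and 6.21 at rank 89470 for Suz12. The change of places is therefore between low-ranked regions and not between the summits described. Mtf2 and Aebp2 were close in both lists and stood in the other order by mm9 enrichment.

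The mm9 peaks were compared only within that build. Of 13341 series-level mm9 peaks, 27 had their centre in the windows of the 8 genes by the mm9 annotation, 8 at core and 19 at accessory genes. All 27 were overlapped by a replicate 1 peak, as were 99.6% of all series-level mm9 peaks, and 16 by a replicate 2 peak, against 46.9%. The highest enrichment per gene was 36.0 at Jarid2, 24.2 at Aebp2, 21.9 at Mtf2, 10.7 at Ezh1, 8.89 at Eed, 6.88 at Phf19, 5.87 at Suz12 and 5.20 at Ezh2. For Jarid2 the enrichment of that peak was 72.9 in replicate 1 and 35.0 in replicate 2, and for Ezh1 it was 20.8 and 8.60. No replicate 2 peak overlapped the mm9 peaks at Ezh2 or Suz12. Their replicate 1 overlaps were with weak peaks, of enrichment 8.64 at Ezh2 and from 6.83 to 11.1 at Suz12. The replicate 2 mm9 list is the shorter, with 6618 peaks against 22082 in replicate 1. The Ezh2 and Suz12 peaks ranked from 9185 to 11977 in the series-level list. Whether their lack of overlap follows from the length of the replicate 2 list was not tested. By the mm9 gene models the highest Mtf2 peak and the Eed peak 5.18 kb downstream lay in introns of those genes. The mm9 annotation starts Jarid2 further upstream than RefSeq, so its highest peak lay 0.808 kb from that TSS.

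Other genes tied to PRC2 were taken from a list of 6, of which 4 had an optimal summit. Lcor, whose locus also encodes the PRC2 accessory protein PALI1, had 3 summits with a highest signal of 174 at 41.1 kb upstream, rank 939 in replicate 1 and 577 in replicate 2. Epop, an accessory subunit gene expressed in embryonic stem cells, had 4, the highest of signal 95.7 at 32.8 kb upstream and nearest to the TSS of Mllt6. The histone-binding subunit genes Rbbp7 and Rbbp4 had 1 each, of signal 76.1 at 4.14 kb upstream and 38.4 at 28.0 kb downstream of their TSSs. Phf1, the remaining Polycomb-like gene, and Ezhip, which encodes an inhibitor of the enzyme, had none in the window. Another list held 3 genes for demethylases of the same histone residue or their Y-linked paralog. Kdm6a had 1 summit of signal 49.9 and Kdm6b 1 of signal 31.9. Uty had none, and no optimal peak lay anywhere on the Y chromosome. These 6 of 9 genes can be read against the same 48.4% of all genes.

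The counts per gene under each peak set and window are plotted as a grid. Jarid2, Mtf2 and Eed had a summit under every setting plotted, while Aebp2, Ezh1, Ezh2, Suz12 and Phf19 had none when only gene bodies were counted. Suz12 also had none in the conservative set, among the 15891 highest regions of replicate 2, among the top 50% of optimal peaks and with 10 kb or the gene body. Ezh2 also had none among the top 50%, with 10 kb or the gene body, and when a summit counted only for its nearest TSS.

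**Figure D4:**
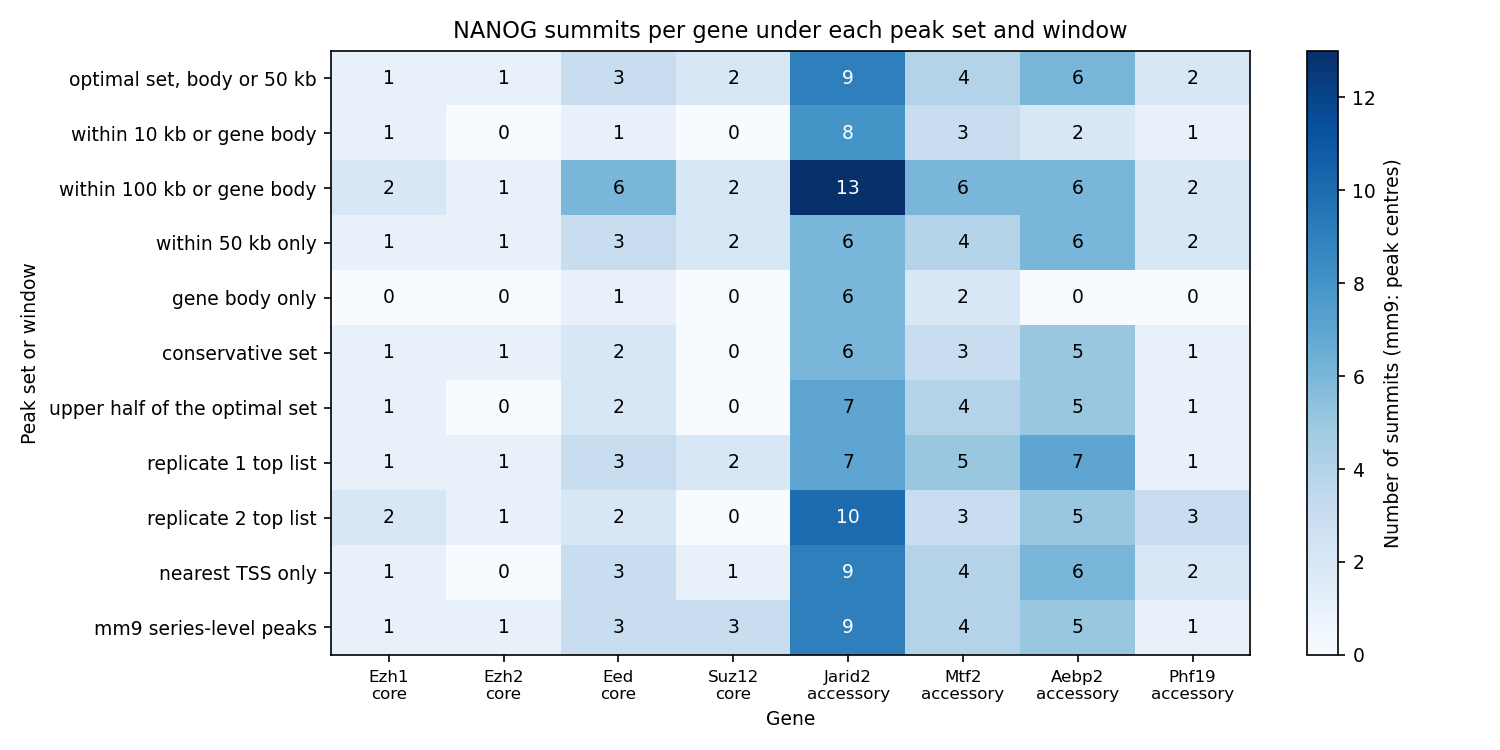
Number of NANOG summits per gene (colour and digit) for each peak set and window, with genes on the x axis and settings on the y axis. Jarid2 runs from 6 to 13, while Ezh1 and Ezh2 never exceed 2.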

How the data were processed

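NANOG ChIP-seq peak lists of 2 biological replicates were used. Read depth is unknown, and the aligner, caller and IDR threshold are not given in the sources used here. Per the submitters' readme files, the authors made relaxed mm10 lists (replicate 1, replicate 2, pool) as input to IDR and derived the optimal and conservative sets from them. The deposited mm10 values per peak are a signal, the -log10 of the q-value and an integer score. Each deposited mm9 peak has an enrichment ratio against an unstated reference, the -log10 of the p-value and an untransformed q-value. The control named in the labels was not used here.

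Ranks follow the signal (mm10) or enrichment (mm9), computed with Python 3.11.15, NumPy 2.4.6 and pandas 2.3.3. Positions came from RefSeq GRCm38.p6, with 21485 of 21896 protein-coding genes having a strand (17491 from the promoter table, 3994 by name from GENCODE M1). The TSS is the gene's 5' end. mm9 used GENCODE M1 and NCBIM37, and builds were never mixed. Coordinates are 1-based. Conservative membership means at least 1 shared bp, and replicate support a summit within 100 bp. Routines were tested on simulated data. Members and lists were chosen with earlier results of these data known. All 8 genes and the 9 others were named by list, and the nearest genes of summits by rule.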

Additional observations from a re-analysis of the deposited data

How the results depend on the processing

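All 8 genes had a summit within 100 kb or the gene body (67.2% of all genes), in replicate 1 alone (48.5%) and with mm9 peaks (45.3%). All 8 genes also had one within 50 kb of the TSS, where only parts of gene bodies farther away were left out (44.8%). The number was 7 with the conservative set (33.7%), in replicate 2 alone (54.0%) and when a summit counted only for its nearest TSS, and 6 with the top 50% of the optimal set or a window of 10 kb. In replicate 1 alone the 8 genes had 27 summits and in replicate 2 alone 26. With 10 kb or the gene body, 2 core genes had a summit, the summits numbered 16, the share of all genes was 25.4% and accessory genes had 7 times as many summits as core genes, against 3 times in the report's setting. With gene bodies only, these were 3 genes, 1 core and 2 accessory, 9 summits, 18.2% of all genes and a ratio of 8. The ratios in this paragraph are of counts and are not adjusted for length. Jarid2, with a gene body of 190.9 kb, held 8 of the 14 accessory summits with 10 kb or the gene body. With gene bodies only, Jarid2 held 6 of the 8 accessory summits. With the top 50%, 2 core genes had a summit, the share of all genes was 30.8% and the ratio 5.67. By nearest TSS, 27.9% of all genes had a summit. Within 100 bp of the mm9 centre, 10 of the 27 peaks held a motif match and 46.5% of all mm9 peaks did, against 16 of 27 and 57.3% within 150 bp. Both-replicate support ranged from 18 to 26 of 28 summits. No paired analysis was possible because the study has 1 group. Read depth is unknown, so weak sites in replicate 2 cannot be called absent.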

Other observations

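At Jarid2, the optimal peaks with summits 120.8 kb and 121.0 kb downstream of the TSS overlap each other, and the second (signal 15.3, rank 15331 of 15891) touches the conservative set, with no conservative summit within 100 bp. At Aebp2 the peaks at 19.1 kb and 18.9 kb upstream overlap as well, although each had its own summit in both replicates, with ranks of 4134 and 4681 for the weaker one. Windows of a fixed size also decide what is counted. The Jarid2 window missed a peak of signal 79.1 by 1.16 kb and the Mtf2 window one of signal 117 by 1.28 kb, while the single Ezh2 summit lay 0.267 kb inside its edge. By the mm9 annotation, which starts Jarid2 further upstream, a peak 49.9 kb upstream of the TSS (enrichment 15.4, with 30.3 in replicate 1 and 13.9 in replicate 2) was inside the window.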
